A study of Mus musculus with 22 samples.

Results

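Cells with counts of simple epithelial genes were examined in mouse embryos at embryonic day (E) 10 imaged with CosMx. This method counts single RNA molecules in tissue sections and assigns each to a segmented cell. The cells were chosen by their counts of *Krt8*, *Krt18*, *Krt19*, *Epcam* and *Cdh1*, and whether each was epithelial was not tested. A cell was a member when it held at least 50 counts, a summed count of these 5 genes of at least 6 and of at least 20 per 1000 of its counts, at least 2 of the genes, and a *Cdh5* count under 3. Of 37575 segmented cells in 22 sections, 30353 held at least 50 counts and 280 of these (0.922%) met the rule. The remaining 30073 are called other cells. Sections 1 to 13 were labelled as knockout (dKO in the plots) and came from 1 *Nr4a1*-/-*Nr4a2*-/- embryo, with both alleles constitutive and backcrossed to C57BL/6J. Sections 14 to 22 were labelled as wild type (WT) and came from 1 *Nr4a1*+/+*Nr4a2*+/+ embryo. No drug, transgene or Cre was used in these embryos, and every section was cut at 10 µm. The tissue was fresh frozen by the study's methods and by 1 label of the sections, while another label speaks of formalin and paraffin. The sections spanned the region of the aorta, gonad and mesonephros from front to back. Sections of an embryo are repeated measurements of that embryo, and by the study's methods no slide held sections of both embryos, so embryo, slide and genotype cannot be told apart.

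Simple epithelia are sheets of polarized cells that line tubes and cavities, such as the gut, the nephric duct and the body surface of the early embryo. Their cytoskeleton is built from the paired type II keratin 8 and type I keratins 18 and 19, and E-cadherin, encoded by *Cdh1*, and EpCAM hold neighbouring cells together. Epithelia also lay down a basement membrane, to which integrins anchor them, and several of them send patterning signals such as Sonic hedgehog to the mesenchyme beneath.

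The start regions of the rule genes are shown because these genes define the members, and *Krt8* and *Krt18* are neighbours on chromosome 15. RefSeq sequences of the mouse build GRCm38.p6 were available for 3 of the 5 genes and run from 250 bases before to 50 bases after the start of the gene. Capitals mark CAGGTG or its reverse complement CACCTG, the E-box bound by repressors of epithelial genes such as Snail and Zeb proteins.
Krt8: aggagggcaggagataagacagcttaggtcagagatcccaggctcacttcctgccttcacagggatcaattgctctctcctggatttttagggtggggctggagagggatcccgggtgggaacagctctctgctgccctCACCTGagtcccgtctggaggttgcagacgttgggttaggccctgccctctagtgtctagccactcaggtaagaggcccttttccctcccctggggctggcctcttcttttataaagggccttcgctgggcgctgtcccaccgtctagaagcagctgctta
Krt18: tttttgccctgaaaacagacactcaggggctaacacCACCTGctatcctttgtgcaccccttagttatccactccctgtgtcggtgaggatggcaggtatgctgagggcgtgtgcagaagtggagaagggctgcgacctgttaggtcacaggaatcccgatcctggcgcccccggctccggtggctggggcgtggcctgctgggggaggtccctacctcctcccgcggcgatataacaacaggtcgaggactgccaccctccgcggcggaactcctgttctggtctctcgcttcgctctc
Epcam: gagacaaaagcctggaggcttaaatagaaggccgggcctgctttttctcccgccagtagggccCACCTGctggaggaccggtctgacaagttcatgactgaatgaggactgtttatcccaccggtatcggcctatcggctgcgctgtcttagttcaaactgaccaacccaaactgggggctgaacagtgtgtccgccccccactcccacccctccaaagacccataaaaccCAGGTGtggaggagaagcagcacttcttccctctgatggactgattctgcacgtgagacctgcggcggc
The windows lie at chr15:102004293-102004592 on the minus strand (*Krt8*), chr15:102027966-102028265 on the plus strand (*Krt18*) and chr17:87635729-87636028 on the plus strand (*Epcam*). The *Krt8* and *Krt18* windows are 23373 bases apart. The motif begins 111 bases before the start of *Krt8*, 214 bases before that of *Krt18*, and 187 and 19 bases before that of *Epcam*. Of 32851 start windows of this length, 6640 (20.2%) hold the motif on either strand. A match is a string of letters in the window and says nothing of binding in these cells.

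The members were few in most sections and clustered in some. They made up between 0.181% (section 4) and 2.79% (section 11) of the cells of a knockout section, with a median of 0.847%. In the wild-type sections the share ran from 0% (section 16) to 2.90% (section 21), with a median of 0.393%. The ranges overlapped widely, with sections 9, 11, 21 and 22 highest. The 0 of 818 cells in section 16 allow a share of up to 0.367% when the limit is set at 3 counts, and the upper end of the Wilson interval there, drawn in the plot of shares, is 0.467%. Binomial intervals (Wilson, 95%) ran from 2.10% to 3.71% in section 11 and from 2.08% to 4.02% in section 21, and these intervals cover counting error only. Sections 11, 9, 21 and 22 held 46, 44, 34 and 24 members, together 52.9% of all, and 11 sections (2, 5, 7 to 12, 14, 21 and 22) held at least 10. In each of the 11 larger sections but section 14, most members lay in 1 imaging field. In section 14 a field held at most 4 of the 10 members. One field held 42 of the 44 in section 9, 40 of the 46 in section 11, 27 of the 34 in section 21 and 17 of the 24 in section 22. Since sections were cut at different levels of this region, the share of members was not tested between the embryos.

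**Figure D1:**
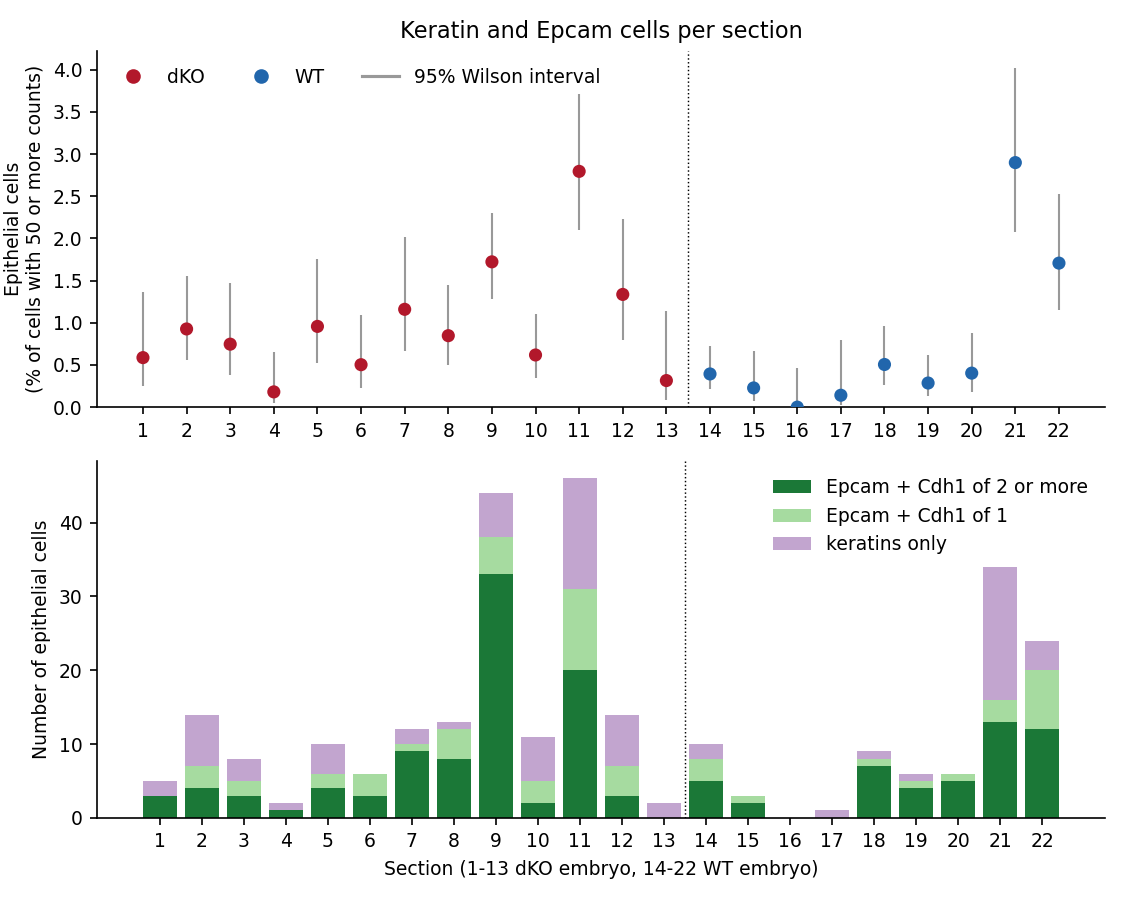
Upper panel, percent of cells with 50 or more counts that met the rule in each section, with 95% Wilson intervals. Lower panel, number of members per section, split by the summed count of Epcam and Cdh1 of a cell. Sections 9 and 11 of the knockout embryo and 21 and 22 of the wild-type embryo hold 148 of the 280 members.

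The median member held 337 counts (range 54 to 1553), of which 26.7 per 1000 were counts of the rule genes. *Krt8* was detected in 262 members, *Krt18* in 240, *Cdh1* in 172, *Krt19* in 158 and *Epcam* in 101. Thus, the keratins carried most of the rule, and *Krt8* and *Krt18* were found in the same cell in 225 members, a count that the rule helps to set. All 5 genes were detected in 34 members, and 1 member held none of the 3 keratins. By section, *Krt8* ran at 85.7 to 153 counts per 10000 in members of the 11 larger sections and at 9.78 to 25.6 in other cells, as the rule demands. *Epcam* was uneven, at 2.53 per 10000 in members of section 21 and at 39.8 in those of section 14, against 2.30 and 2.96 in their other cells. In section 10 it ran at 2.78 in members and 2.13 in other cells. In members of wild-type section 22, *Epcam* ran at 25.8 per 10000, against 2.58 in its other cells.

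The limits left cells of similar counts on either side. Members with a summed count of 6 to 8 numbered 127, and 119 members stood under 25 per 1000. Just outside, 317 cells met the rule but for a summed count of 2 to 5, and 889 cells had the counts but stood under 20 per 1000, the closest at 19.97. A *Cdh5* count of 3 or more removed 7 cells, and a single rule gene removed 4. Transcripts known from other cell types were found in members too, *Hba-a1/2* in 47.5%, *Acta2* in 34.6% and *Col1a1* in 53.9%, and in 46.1%, 20.6% and 45.7% of other cells. Their part in the results was not tested. The median count of a member was above that of other cells in 7 of the 11 larger sections, most of all in section 9 (515 against 253), where 18 of the 44 members held no more than 3 times the section's median count. Cell names recur between sections (3410 names were used by 2 sections), but no such pair had the same counts.

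For each of the 11 sections with at least 10 members, which hold 232 of the 280, the counts of the members and of all other cells were summed and compared within the section, without the rule genes and *Cdh5*. All 992 remaining genes passed the filter on low counts, since the summed other cells are deep. With edgeR's quasi-likelihood test and an adjusted p (Benjamini-Hochberg) under 0.05, 34 genes (3.43%) differed, of which 25 (2.52%) were higher in members and 9 (0.907%) were lower. At an unadjusted p under 0.05 there were 113 genes (11.4%), beside which such counts of the lists are to be read. Over all 992 genes the log2 fold changes had a median of -0.09. Against other cells matched to the members on total count, 25 genes were higher and 10 were lower. When each cell had 1 vote in place of summed counts, 11 were higher and 26 were lower, with a median of -0.34. The p-values rest on the spread between sections of these 2 embryos and are too small for mouse embryos in general.

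**Figure D2:**
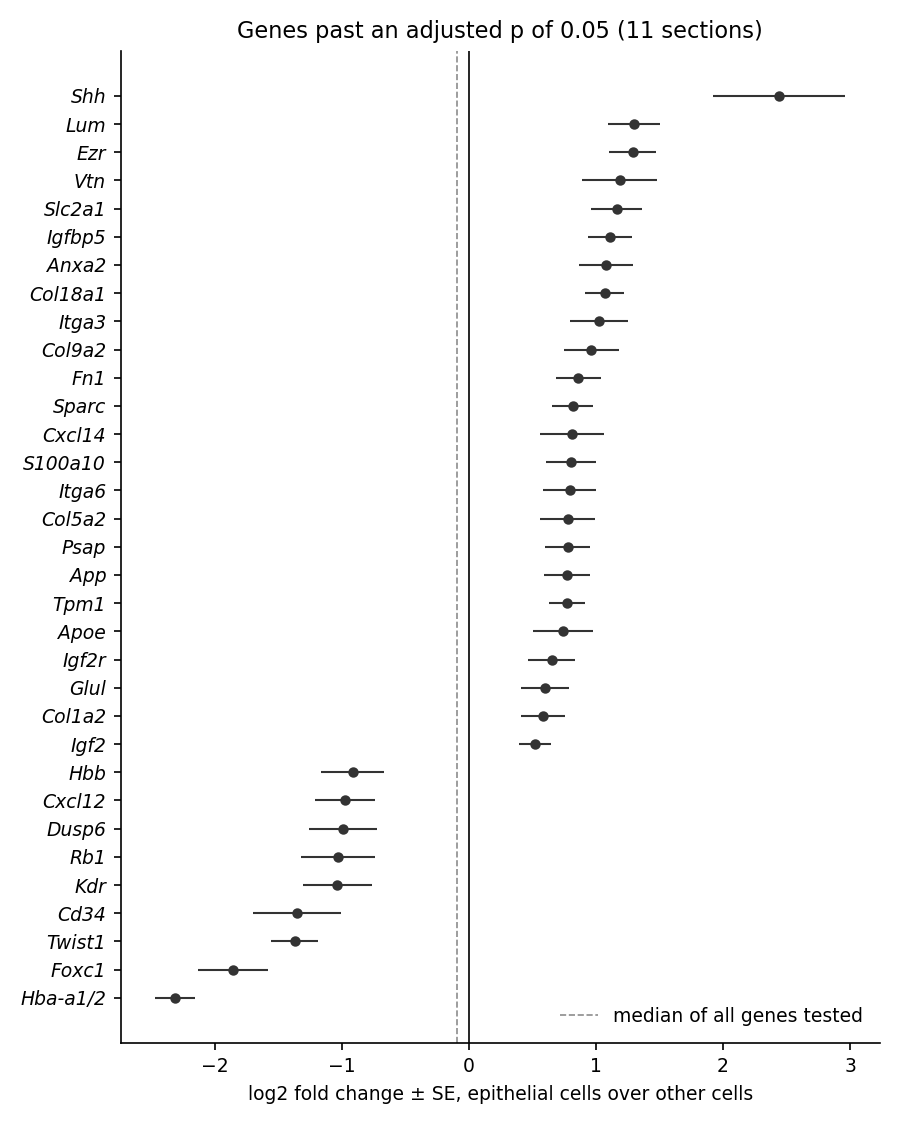
Log2 fold change (points) and standard error (bars) of genes with an adjusted p under 0.05 between members and other cells of the same sections (edgeR, 11 sections), all but 1 of the 34. Shh stands farthest to the right at 2.44 and Hba-a1/2 farthest to the left at -2.31, and the dashed line marks the median of all 992 genes.

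Among the other genes of simple epithelia, 2 of 13 were higher in members and none was lower, with a median log2 fold change of 0.49. *Ezr* encodes ezrin, which ties the actin of apical microvilli to the membrane. In members of the 11 sections it ran at 21.1 to 43.2 counts per 10000 (median 29.6), and in other cells at 9.94 to 18.2 (median 12.9). The 2 ranges did not overlap, and *Ezr* was higher in members in all 11 sections (log2 fold change 1.29 ± 0.19 SE, edgeR adjusted p = 1.2e-09). *Krt7*, *Cldn4*, which encodes a tight junction protein, *Ddr1*, *Cd9* and *Cd24a* had log2 fold changes of 0.42 to 0.71 and edgeR adjusted p-values of 0.11 to 0.34. Of the 13 genes 3 had negative values, *Ceacam1* (-0.27), *Krt80* (-0.20) and *Muc1* (-0.077), with edgeR adjusted p-values of 0.82 to 0.96. *Krt80* was lower in members in 9 of the 11 sections and *Ceacam1* in 8. Of 14 keratins and other genes of stratified epithelia 0 were called by edgeR, with 2 at an unadjusted p under 0.05 and a median of -0.02. Their summed level was higher in members in 2 of the 11 sections (median 57.8 against 71.5 per 10000 in other cells).

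Of 12 genes of the basement membrane and of the adhesions that grip it, 3 were higher in members and none was lower (median 0.15). *Col18a1*, which encodes the collagen XVIII core of a basement membrane proteoglycan, ran at 27.0 to 122 per 10000 in members (median 94.6) and at 30.8 to 49.5 in other cells. It was higher in members of 10 of the 11 sections, all but section 2, and in 20 of the 21 sections that hold any member (log2 fold change 1.07 ± 0.15, edgeR adjusted p = 1.2e-09). *Itga3* and *Itga6* encode the laminin-binding integrin chains alpha 3 and alpha 6. *Itga3* was higher in members in 10 of 11 sections (median 12.3 against 6.35 per 10000; log2 fold change 1.02 ± 0.23, edgeR adjusted p = 5.1e-04). *Itga6* was higher in 8 of 11 (log2 fold change 0.79 ± 0.21, edgeR adjusted p = 0.0058), with 60.3 per 10000 in section 7 and at most 27.2 in the other larger knockout sections. In the smaller knockout section 3 *Itga6* stood at 48.9, from 9 counts. Without section 7 the log2 fold change of *Itga6* was 0.57 and its adjusted p 0.18. *Itgb4* and *Col17a1*, components of hemidesmosomes, had log2 fold changes of -0.13 and -0.12.

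**Figure D3:**
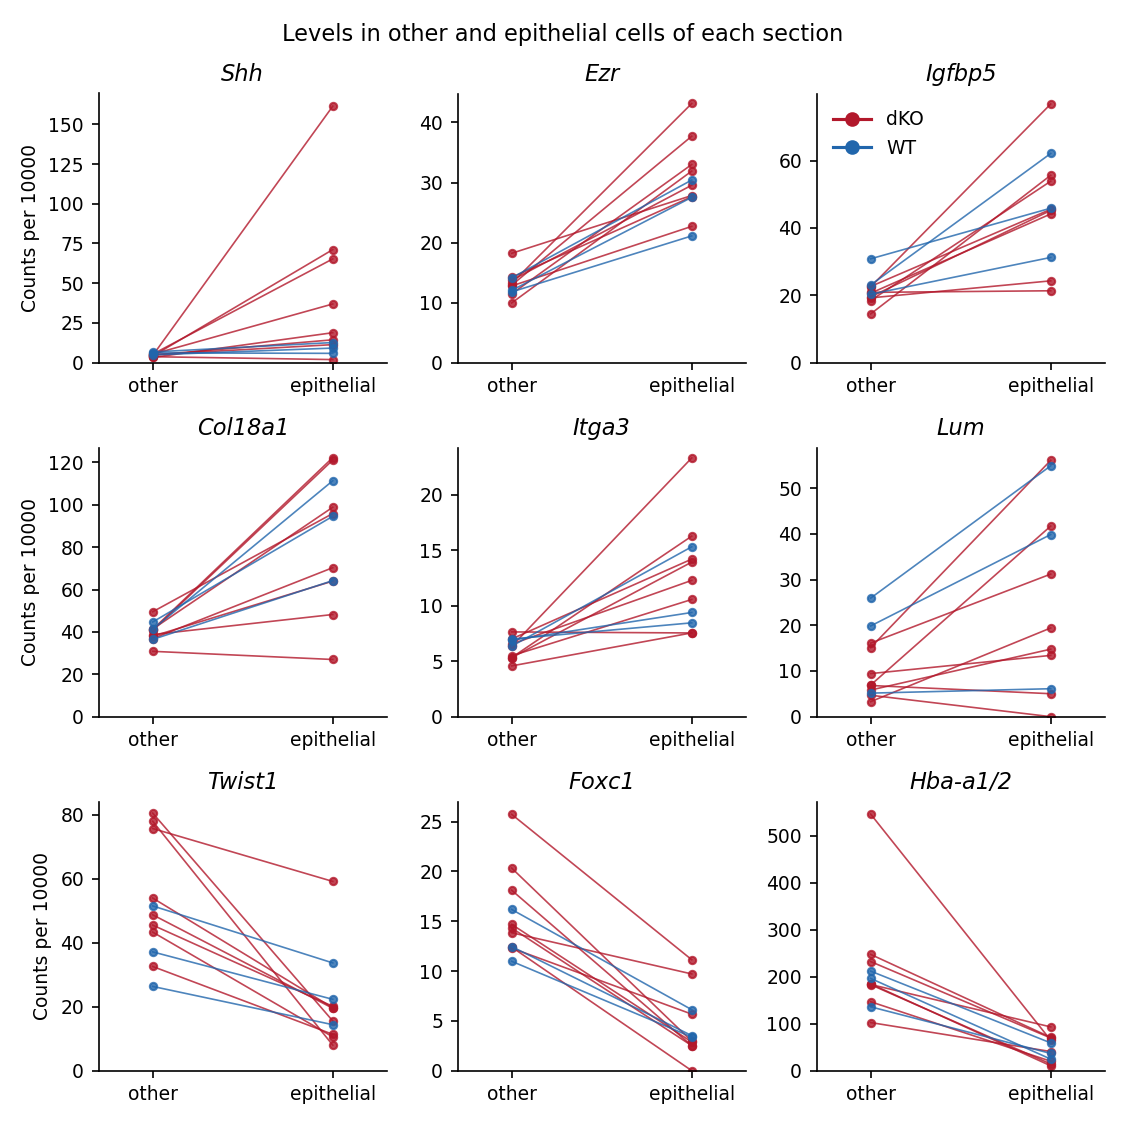
Counts per 10000 counts of 9 genes in other cells and in members of the 11 sections with at least 10 members. Lines join the values of a section, red for the knockout embryo and blue for the wild-type embryo. Ezr and Igfbp5 rose in every section, while Twist1, Foxc1 and Hba-a1/2 fell in every section.

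*Shh* was the 1 of 23 genes for secreted signals that was called, and it had the highest fold change of all genes. Sonic hedgehog is made by the notochord, the floor plate and the gut epithelium of the early embryo. In members of the 8 larger knockout sections it ran at 1.94 to 161 counts per 10000 (median 27.9), against 3.28 to 5.33 in the other cells of the same sections. In wild-type members it was 9.18, 12.7 and 5.86 per 10000 in sections 14, 21 and 22, against 4.90, 6.71 and 6.16 in other cells. In the sections with fewer members, those of knockout section 1 stood at 245, of section 3 at 5.43 and of sections 4, 6 and 13 at 0. The smaller wild-type sections ran from 0 (sections 15, 17 and 19) to 91.0 (section 20). Members were higher in 9 of the 11 larger sections, all but sections 8 and 22, and section 10 stood far above the rest of these 11. Over the 21 sections with any member they were higher in 12 and lower in 9. The log2 fold change was 2.44 ± 0.52 (edgeR adjusted p = 0.0266). It was between 2.14 and 2.61 with any section left out, and the adjusted p was 0.0647, 0.0716, 0.0597 and 0.0742 without sections 2, 9, 11 and 12. In the knockout sections alone it was 2.90 ± 0.41 (edgeR adjusted p = 2.2e-04), and in the 3 wild-type sections alone 0.78 ± 0.45 (adjusted p = 0.995). The other signals of the list, including *Wnt7b* (0.65) and *Pdgfa* (0.67) in log2 units, did not pass the test, and the list had a median of 0.12.

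A few cells carried most of the *Shh* counts. Of the 280 members, 69 held *Shh*, and 14 of these held at least 5 counts each and 225 of the 316 counts in all. These *Shh*-rich members lay in 9 sections and in 1 field of each, with 3 cells in sections 1 and 10, 2 in section 7 and 1 in sections 2, 9, 11, 12, 20 and 21. The highest counts of a cell were 30 in section 1, 26 in section 10 and 25 in section 9. Of the 30073 other cells, 60 (0.200%) held 5 or more *Shh* counts, against 14 of the 280 members, and the highest of them held 65 in section 20. This pair of shares carries no test.

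**Figure D4:**
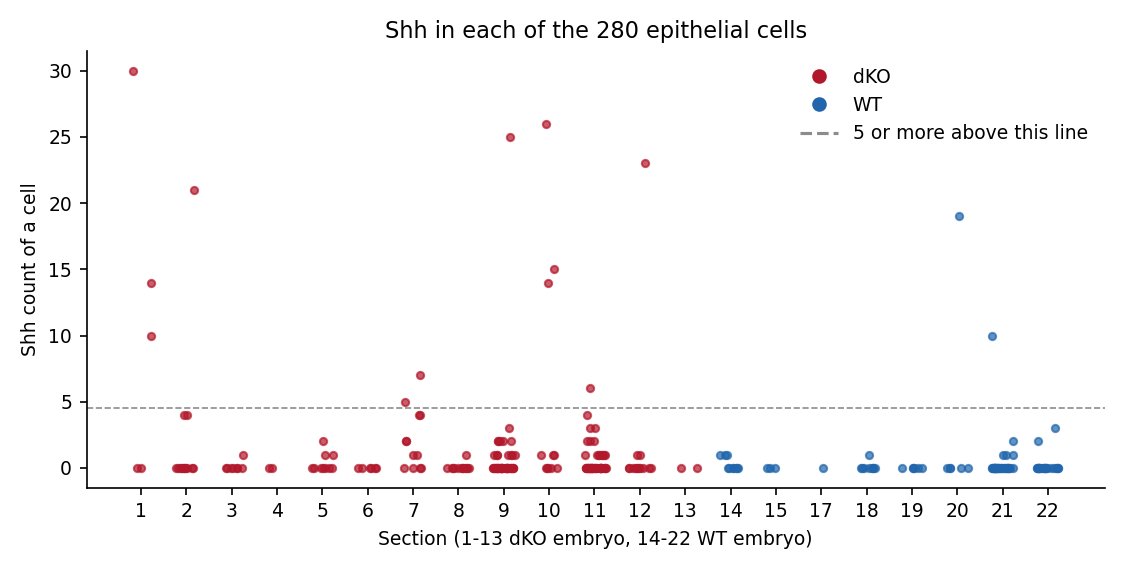
Shh count of each of the 280 members by section, red for the knockout embryo and blue for the wild-type embryo, with points spread sideways so that they can be told apart. The 14 cells above the dashed line hold 225 of the 316 Shh counts.

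Other genes with unlike levels in *Shh*-rich and other members were named after their values were seen and are given as pooled counts with no test. *Col11a1* ran at 53.3 counts per 10000 in the 14 cells and at 4.60 in the other members, and *Col9a2* at 49.0 and 12.9. These 2 genes encode chains of collagens XI and IX, known from cartilage and the notochord sheath. *Sox9*, a transcription factor that drives such collagens, ran at 69.1 and 28.1. *Krt19* ran at 63.4 and 33.2, and since it is a rule gene, the choice of members helps to set its level. The higher genes named here are a selection among those with at least 20 counts in the *Shh*-rich cells. By the ratio of the pooled rates, *Alcam* (3.76), *Psap* (2.56), *Yap* (2.51) and *Rac1* (2.47) stood above *Sox9* (2.46). These and *Cd63* (2.44) stood above *Krt19* (1.91). *Igf2*, a growth factor made widely in the embryo, was at 33.1 per 10000 in the *Shh*-rich cells and at 284 in the other members. Within the 9 sections, *Igf2* was lower in the *Shh*-rich cells in 9, *Col11a1*, *Sox9* and *Krt19* were higher in 7, and *Col9a2* was higher in 6. Weighted to the same sections, the other members stood at 6.77 for *Col11a1*, 13.2 for *Col9a2*, 20 for *Sox9*, 22.5 for *Krt19* and 221 for *Igf2*. Of the 14 cells, 6 held an *Epcam* and *Cdh1* count of 2 or more in sum, 6 held neither, and 5 held *Col1a1*. The *Shh*-rich cells of sections 7 and 11 held 0 counts of *Col11a1* and of *Col9a2*. Whether the 14 cells are of 1 cell type was not tested.

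The 4 sections with 20 or more members did not have the same leading genes, which are listed after the values were seen, among genes with at least 20 counts in the members of a section. In section 9 they were *Vtn*, *Ttr*, *Shh*, *Sox9* and *Apoe*. *Vtn*, *Ttr* and *Apoe* encode vitronectin, transthyretin and apolipoprotein E, secreted proteins of the liver and yolk sac endoderm. *Ttr* ran at 63.7 counts per 10000 in the members of section 9, in 26 of the 44 cells, and at 9.56 in its other cells. *Sox9* ran at 85.5 and 16.9. In section 11 the leading genes were *Lum*, *Ezr*, *Col1a1*, *Anxa2* and *Shh*, with *Lum* at 56.1 in members and 15.1 in other cells. In sections 21 and 22 *Slc2a1*, which encodes the glucose transporter GLUT1, led the members at 54.1 and 95 per 10000, against 20 and 21 in other cells.

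Over the 11 sections, 2 of the 11 hepatic and endodermal genes were higher in members (median 0.18), namely *Vtn* (log2 fold change 1.19 ± 0.29, edgeR adjusted p = 0.0035) and *Apoe* (0.74 ± 0.23, adjusted p = 0.0464). Both turned on section 9, where *Vtn* ran at 42.7 per 10000 in members and at most at 19.5 in the other knockout sections. Without section 9 the log2 fold changes were 0.55 and 0.45, with adjusted p-values of 0.59 for both. *Vtn* also missed the threshold without section 5 (adjusted p = 0.0590) or 7 (0.0734), and *Apoe* without any 1 of sections 5, 7, 10, 11, 12 and 22 (0.0517 to 0.246). Beyond the lists, *Slc2a1* (1.16 ± 0.20), *Igfbp5* (1.11 ± 0.17), which encodes a binding protein of insulin-like growth factors, and *Anxa2* (1.08 ± 0.21), which encodes a membrane-binding annexin, were among the 10 highest. *Slc2a1* was higher in members in 8 of the 11 sections and in 9 of the 21 with any member, and in the larger sections with a 1 in the name of their table (2, 5, 7 and 14) its log2 fold change was 0.098 (edgeR adjusted p = 0.995). *Igfbp5* was higher in members in all 11 sections, at 21.4 to 76.8 per 10000 against 14.5 to 30.8.

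Mesenchymal genes moved in both directions. Of 23, 5 were higher in members, 3 were lower, and the median was 0.08. *Twist1* and *Foxc1* encode transcription factors of the mesenchyme and sclerotome. *Twist1* ran at 7.96 to 59.1 per 10000 in members (median 19.5) and at 26.3 to 80.4 in other cells (median 48.7). It was lower in members in all 11 sections (log2 fold change -1.37 ± 0.18, edgeR adjusted p = 6.0e-11). *Foxc1* was at 0 to 11.1 in members and at 11 to 25.7 in other cells, and also lower in all 11 (-1.86 ± 0.27, adjusted p = 2.7e-09). *Cxcl12*, a chemokine of stromal cells, fell by 0.97 ± 0.24 on the log2 scale (edgeR adjusted p = 0.0023). The genes that were higher encode matrix proteins. *Lum*, which encodes the proteoglycan lumican, stood at 0 to 56.1 in members and 3.28 to 25.9 in other cells and was higher in 9 of 11 sections (1.3 ± 0.20, edgeR adjusted p = 3.2e-08). *Fn1*, which encodes fibronectin, was higher in 10 of 11 (0.86 ± 0.18, adjusted p = 1.4e-04), and *Sparc*, *Col5a2* and *Col1a2* were the other 3. The summed mesenchymal level ran from 217 to 944 per 10000 in members (median 551) and from 404 to 627 in other cells (median 482), none of the 23 genes was at 0 in members pooled over these sections, and its part in these results was not tested.

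Both globin genes on the panel were lower in members. *Hba-a1/2*, the alpha globin genes of red cells, ran at 10.3 to 93.3 per 10000 in members and at 102 to 547 in other cells. The ranges of the 11 larger sections did not overlap (log2 fold change -2.31 ± 0.16, edgeR adjusted p = 2.2e-37). Over the 21 sections with any member, *Hba-a1/2* was lower in members in 19 and higher in 2, sections 4 and 19. *Hbb* also fell, by 0.91 ± 0.25 on the log2 scale (adjusted p = 0.0094), and missed the threshold without section 11 (0.115). Of 13 endothelial genes 2 were lower and none was higher (median -0.44, with 12 negative values and *Tek* at 0.21), although *Cdh5*, which the rule capped, was not tested. *Kdr*, which encodes the VEGF receptor 2, was at 0 to 7.39 in members and at 8.64 to 11.8 in other cells (-1.03 ± 0.27, edgeR adjusted p = 0.0054, and 0.0573 without section 9). *Cd34* fell by 1.36 ± 0.35 (adjusted p = 0.0039). The summed endothelial level stood at 54.9 to 87.9 per 10000 in members and at 82.5 or more in other cells, and was lower in members of every section tested.

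Of 8 smooth muscle genes 7 had a positive log2 fold change in members, with 5 at an unadjusted p under 0.05 and a median of 0.43. Of these *Tpm1*, which encodes a tropomyosin also made outside muscle, was the 1 called (0.77 ± 0.14, edgeR adjusted p = 3.8e-06), while *Acta2* (0.55) and *Tagln* (0.61) had adjusted p-values of 0.14 and 0.12. The summed smooth muscle level was 153 to 585 per 10000 in members and 186 to 317 in other cells and higher in members in 9 of 11 sections, none of the 8 genes was at 0 in members pooled over these sections, and its part in these results was not tested. Of 7 targets of fibroblast growth factor signaling, *Dusp6*, which encodes a phosphatase of ERK, was lower (-0.99 ± 0.27, edgeR adjusted p = 0.0094; 0.0568 without section 11 and 0.0514 without section 22). None of the 12 receptor tyrosine kinases (median 0.14), 8 lineage transcription factors (0.00), 9 macrophage genes (-0.09), 9 neural genes (-0.07) or 15 proliferation genes (-0.20) was called by edgeR, with unadjusted p-values under 0.05 for 1, 1, 0, 1 and 2 of them. The summed level of the proliferation genes was higher in members in 1 of the 11 sections (median 676 against 781 per 10000). *Rb1*, a brake on the cell cycle, was lower in members (-1.03 ± 0.29, adjusted p = 0.0156), and missed the threshold without any 1 of sections 8, 9, 11 and 22 (0.0573 to 0.115).

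The targeted genes were at the level of low counts in members. *Nr4a1* ran at 0 to 8.51 counts per 10000 in the 8 knockout sections (median 2.43), and at 6.12, 1.69 and 2.34 in wild-type sections 14, 21 and 22. *Nr4a2* ran at 0 to 5.82 (median 3.15) in knockout sections, and at 6.12, 2.53 and 1.17 in the wild-type ones. The embryos overlapped for both genes in members. In other cells, which hold far more counts, *Nr4a1* ran at 1.75 to 2.61 per 10000 in the 13 knockout sections (median 2.24) and at 2.36 to 3.22 in the 9 wild-type sections (median 2.73). *Nr4a2* ran at 3.05 to 5.15 (median 4.18) and at 3.31 to 6.15 (median 4.77) there, and the ranges of both genes overlapped. Both transcripts were thus counted in sections labelled as double knockout at rates near those of the wild-type sections, so these counts do not check the genotype labels, and where on the transcripts the probes bind is not given in the sources used here. *Nr4a1*, *Nr4a2* and *Nr4a3* did not pass the test between members and other cells (log2 fold changes 0.24, -0.52 and -0.08; edgeR adjusted p = 0.87, 0.66 and 0.96).

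To ask whether members differed between the embryos, their summed counts in the 8 knockout sections were compared with those in the 3 wild-type sections. Only 98 of 992 genes passed the filter on low counts, and edgeR called 0 of them (0%), with 7 at an unadjusted p under 0.05, and DESeq2 also called 0, with 9. The 7 were *Ccl19*, *Tpm2* and *Igf2r*, lower in knockout sections, and *Smarcb1*, *Top2a*, *Btf3* and *Col4a1*, higher, all with an adjusted p of 0.42. A test of the difference between the embryos beyond that in other cells, over all 992 genes, called 0 as well (0%), with 44 at an unadjusted p under 0.05 by edgeR, and 0 and 34 by DESeq2. The change of *Shh* between members and other cells was larger in the knockout sections by 2.13 ± 0.72 on the log2 scale (edgeR adjusted p = 0.87). Without section 8 this difference was 2.34 and the only call of its test (edgeR adjusted p = 0.0258), and with a looser rule for members it was 0.06. *Nr4a1*, *Nr4a2* and *Nr4a3* differed by 0.09, 0.61 and 0.47 log2 units in this test (edgeR adjusted p = 0.996 for each). Sections of 1 embryo stand for each genotype here, and the p-values compare these embryos.

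Members were then split by the genes of cell contact. A summed *Epcam* and *Cdh1* count of 2 or more was found in 141 members, 1 count in 56 and none in 83, and the last are called keratin-only cells. The medians of their total counts were 360, 337 and 318. Only sections 11 and 21 held at least 10 cells with 2 or more (20 and 13) and 10 keratin-only cells (15 and 18). In these sections, 100 genes passed the filter, and edgeR called 7 of them (7%), of which 2 (2%) were higher in the cells with *Epcam* or *Cdh1* and 5 (5%) were lower. The split used only rule genes, and the p-values rest on 2 sections. With 4 summed libraries, the spread behind these p-values was largely shared across the genes tested. A gene's own spread between the 2 sections counted little.

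**Figure D5:**
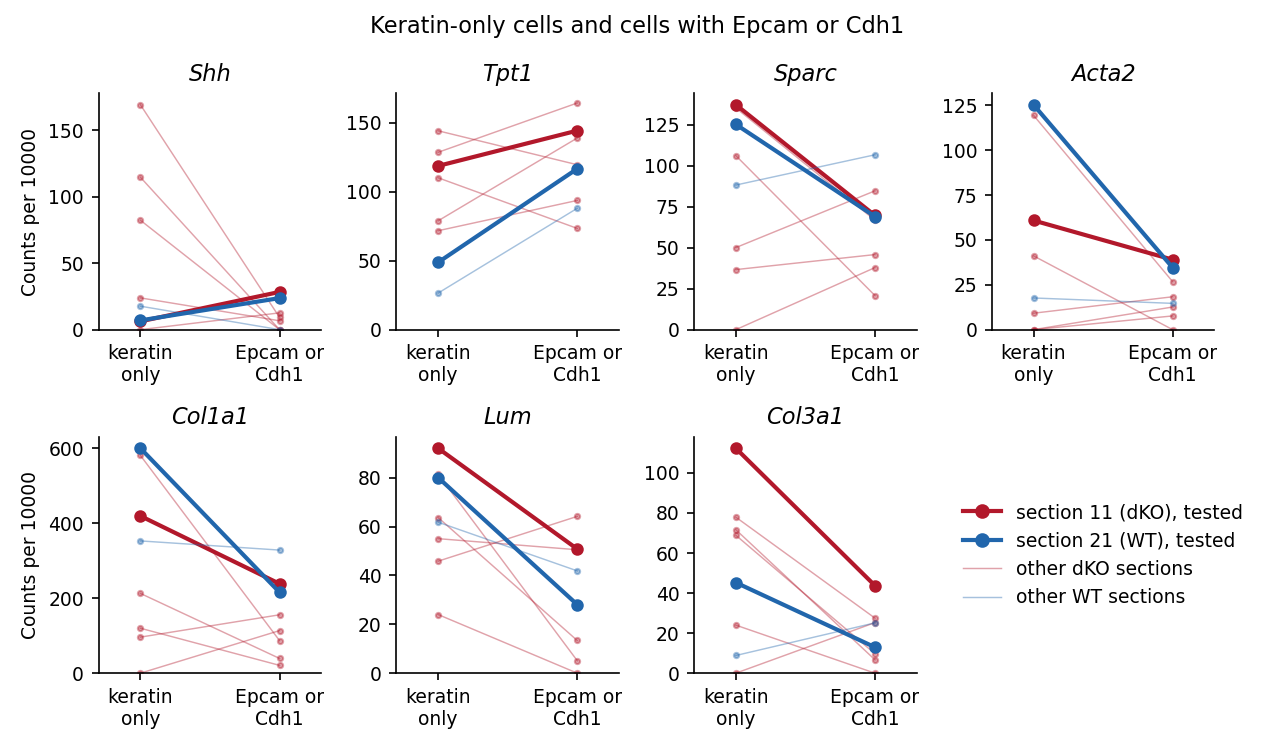
Counts per 10000 (rule genes and Cdh5 left out) of the 7 called genes in keratin-only cells and in cells with an Epcam and Cdh1 count of 2 or more, in the 8 sections with at least 3 cells of each. Thick lines mark the 2 sections tested. Col1a1, Lum and Col3a1 fell along both thick lines, and Shh stood higher at the right end of both, in section 21 through 1 cell, and lower along 5 of the 8 lines in all.

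The 5 genes that were lower beside *Epcam* or *Cdh1* encode matrix proteins or smooth muscle actin. *Col1a1*, a chain of collagen I, ran at 420 and 600 per 10000 in keratin-only cells of sections 11 and 21, and at 239 and 216 in cells with *Epcam* or *Cdh1* (log2 fold change -1.16 ± 0.32, edgeR adjusted p = 0.0158). *Col3a1* (-1.52 ± 0.44), *Lum* (-1.15 ± 0.33), *Acta2* (-1.24 ± 0.32) and *Sparc* (-0.94 ± 0.23) went the same way in both sections (edgeR adjusted p = 0.0091 to 0.0158). All but *Acta2*, a smooth muscle gene, belong to the mesenchymal list, of which 11 genes were tested, 4 fell, 10 had a negative fold change, and the median was -0.94, beside 0.02 for all 100 genes. Over the 8 sections with at least 3 cells of each kind, *Lum* was lower in 7, *Col1a1* and *Col3a1* in 6, *Acta2* in 5 and *Sparc* in 4.

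*Shh* was higher in the cells with *Epcam* or *Cdh1* in both sections tested, at 28.4 against 6.24 per 10000 in section 11 and at 23.7 against 6.96 in section 21 (log2 fold change 1.94 ± 0.57, edgeR adjusted p = 0.0158). These values rest on 24, 4, 11 and 4 counts. In section 21, 1 cell held 10 of the 11, and without it the other 12 cells stood at 2.42 per 10000, below the keratin-only cells. In section 11 the 24 counts lay in 10 of the 20 cells, and without the highest cell the level was 22.8. In section 9 *Shh* ran the other way, with 27 counts in 6 keratin-only cells, 25 of them in 1 cell, and 18 in 33 cells with *Epcam* or *Cdh1*, and over the 8 sections it was higher in 3 and lower in 5. *Tpt1*, which encodes a widely made growth-related protein, was higher in both sections tested (0.69 ± 0.22, adjusted p = 0.0345) and in 6 of the 8. DESeq2 called 0 of the 100 genes, with 3 at an unadjusted p under 0.05.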

How the data were processed

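CosMx counts transcripts of a fixed gene panel in segmented cells of tissue sections. The authors segmented cells with the instrument's AtoMx software from DAPI and antibody stains, 1 of them against cytokeratins, and deposited whole-number counts per cell and gene, not normalized, for each section. The tables held 998 genes in 22 sections. Sections held 169038 to 887904 counts (median 397326), and doublets and segments with RNA of neighbouring cells were not removed. Groups followed the labels of the sections, although the study's text gives other numbers of sections per genotype for its own analysis, and this difference was not settled, and no slide was used as a replicate. The file number, 1 or 2, is that in the names of the tables.

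Members were chosen by the rule given at the start of the report. The members and all gene lists were chosen with earlier results of these data known. Counts were summed per section and class in Python 3.11.15, without the 5 rule genes and *Cdh5*, for sections with at least 10 cells of a class. They were tested in R 4.3.3 with edgeR 4.0.16 (TMM, filterByExpr, robust quasi-likelihood fit), with the section as a block where both classes came from 1 section. P-values were adjusted over all genes tested (Benjamini-Hochberg, threshold 0.05). The comparison between embryos had no block, since 1 embryo stood for each genotype. DESeq2 1.42.0 and limma 3.58.1 served for alternatives, which also covered normalization, the filter, the rule, large segments, section sets and each section left out. The fits were tested on simulated data. Levels are counts per 10000 counts of the summed cells, without correction for gene length or probe efficiency, so they were compared between cells and not between genes. Named genes were list members past the threshold (up to 5 a list), the 10 largest rises and falls with a mean of at least 5 counts, and *Nr4a1*, *Nr4a2* and *Nr4a3*. Genes outside this rule were named after their values were seen, and 1 gene that the rule names is not reported here. Errors after ± are standard errors.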

Additional observations from a re-analysis of the deposited data

Results flagged for a closer look

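Of 27 combinations checked for a section far from the others, 7 had one, and chance alone marks about 1 in 20. The levels of 26 genes were checked in the 8 larger knockout sections alone. The only check in wild-type sections was of the share of members. That all 7 are genes in knockout sections was thus set by what was checked. In counts per 10000 of the members, *Shh* stood at 161 in section 10 and at 1.94 to 71.2 in the others of these 8 sections. The smaller knockout section 1, at 245, was not checked. *Itga6* stood at 60.3 in section 7 (8.35 to 27.2 in the others). *Vtn* and *Apoe* both stood apart in section 9, at 42.7 (0 to 19.5) and 43.6 (5.67 to 19.5). *Twist1* stood at 59.1 in section 12 (7.96 to 20.1). *Dusp6* and *Nr4a3* stood apart in section 8, at 13.6 (0 to 5.91) and 11.6 (0 to 4.43).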

How the results depend on the processing

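Between members and other cells, 25 to 41 genes were called with any 1 section left out (lowest without knockout section 11, highest without wild-type section 14), and 2 in sections with file number 1 alone. DESeq2 called 24 higher and 9 lower, of which 28 were among the 34. The looser rule (a sum of 4 and 15 per 1000) gave 21 higher and 15 lower. A minimum of 5 members, added after seeing the data like the analyses by embryo and the minimum of 3 cells, gave 15 and 17. The knockout sections alone gave 20 and 13, and the wild-type sections alone 4 calls. *Hba-a1/2* passed the threshold in all 27 alternatives, *Ezr*, *Foxc1*, *Twist1* and *Igfbp5* in 25, and *Shh* in 20, with 1 direction in each. *Shh* missed it among others with sections of file number 2 alone (2.27, edgeR adjusted p = 0.184) and with 1 vote per cell (1.84, limma adjusted p = 0.0603). Signs turned for *Anxa2* with file number 1 alone (-0.056) and for *Apoe* in wild-type sections alone (-0.14). They also turned for *Nr4a1* with file number 2 alone (-0.080), and for *Nr4a3* with file number 2 alone (0.079), in knockout sections alone (0.052) and with 1 section left out (-0.33 to 0.018). The cause was not tested.

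Between embryos, leaving out any 1 section gave 0 to 0 calls, the looser rule 3 (*Eno1/b*, *Hsp90ab1* and *Stmn1*) and file number 1 alone 1 (*Col3a1*). For the difference beyond other cells, leaving out 1 section gave 0 to 1 calls. There, signs turned for *Nr4a1* with the looser rule (-0.069), file number 1 alone (-0.11) and 1 section left out (-0.12 to 0.45), and for *Nr4a2* (-0.63) and *Nr4a3* (-1.78) with file number 1 alone.

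The 7 genes of the split fell to 0 with DESeq2, 1 with no filter on low counts, 4 when split at 1 count and 1 with a minimum of 3 cells a section. Without the replicate block, which pairs the classes of a section, the split gave 0 calls and members against other cells 36. No paired analysis was possible between embryos because replicate numbers of different embryos mark no shared source. The stricter rule left too few sections for any fit, and the split could not be fitted with file number 1 alone, with 20 cells a section or with a section left out. Members hold few counts of most genes. Genes under the filter were left out of the main test between embryos, which says nothing of them.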
